A study of Mus musculus with 167 samples.

Results

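Of the 39179 genes in the expression tables of this mouse liver series, 10 genes of iron regulation were followed here: the hepcidin genes Hamp and Hamp2, the regulators Bmp6, Id1, Hfe and Tfr2, the uptake receptor Tfrc, the carrier Trf, and the ferritin chains Fth1 and Ftl1. They were picked by name, and all 10 passed the filter on low counts at every age. The livers came from C57BL/6 mice in which 1 copy of Htt, the Huntington's disease gene, carried a knocked-in CAG repeat, each line being named for its repeat length (Q20, Q80, Q92, Q111, Q140 or Q175), and from wild-type littermates (WT). The names of all WT libraries carry Q20, and none carries the name of another knock-in line. The mice were 2, 6 or 10 months old. Each of the 21 groups of genotype and age held 8 libraries of polyA RNA, 4 from females and 4 from males, except Q80 at 2 months (3 labelled female, 5 labelled male) and Q80 at 10 months (4 female, 3 male). Each genotype is 1 line of mice, so a line and its allele cannot be told apart. The labels do not say that every library is a separate animal, so the p-values measure the spread between these libraries.

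The liver sets the iron level of the blood through hepcidin, a peptide hormone that binds ferroportin, the iron exporter of gut cells and macrophages, and has it degraded. Hepatocytes read iron in the blood through transferrin receptor 2 (Tfr2) and Hfe, and iron in the tissue through bone morphogenetic protein 6 (Bmp6), which endothelial cells of the liver secrete. Both routes act through SMAD proteins on Hamp, and Id1, Smad6 and Smad7 are targets of the same SMAD signal, while inflammation drives Hamp through IL-6 and STAT3. Inside a cell, iron regulatory proteins bind hairpins called iron-responsive elements when iron is short. Binding protects the mRNA of the transferrin receptor Tfrc and blocks translation of the ferritin chains Fth1 and Ftl1, so among these genes Tfrc is the one whose mRNA level this mechanism sets.

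Mice carry a pair of hepcidin genes side by side on chromosome 7, Hamp (ENSMUSG00000050440, GRCm38 chromosome 7, 30942368 to 30944032, minus strand) and Hamp2 (ENSMUSG00000056978, chromosome 7, 30922372 to 30924681, minus strand). The transcripts are alike enough that reads from shared stretches cannot be assigned by sequence, which matters because the difference between the sexes below was largest in Hamp2. Of the 361 windows of 50 bases in the Hamp transcript, 60 (16.6%) also occur in Hamp2. How the authors' counting split such reads is not given in the sources used here, so the amounts of the 2 genes are uncertain to that extent.

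The stretches upstream of the RefSeq starts of both genes are shown because their mRNAs moved together across libraries. They run 240 bases and end 10 bases before the start of transcription in RefSeq (GRCm38.p6), on the minus strand, Hamp at chr7:30944040-30944279 and Hamp2 at chr7:30924192-30924431. The Hamp2 stretch lies inside the span given above for that gene, which reaches 30924681, so it is upstream of the RefSeq start only. Capitals mark GGCGCC, the core of the BMP-responsive element known for hepcidin, and TTCNNNGAA, the core of a STAT site; both read the same on the 2 strands.
Hamp: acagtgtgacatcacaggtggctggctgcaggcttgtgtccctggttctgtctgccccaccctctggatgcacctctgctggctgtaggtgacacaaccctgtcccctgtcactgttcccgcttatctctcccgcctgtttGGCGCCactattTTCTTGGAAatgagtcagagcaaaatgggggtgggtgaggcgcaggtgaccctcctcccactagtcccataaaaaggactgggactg
Hamp2: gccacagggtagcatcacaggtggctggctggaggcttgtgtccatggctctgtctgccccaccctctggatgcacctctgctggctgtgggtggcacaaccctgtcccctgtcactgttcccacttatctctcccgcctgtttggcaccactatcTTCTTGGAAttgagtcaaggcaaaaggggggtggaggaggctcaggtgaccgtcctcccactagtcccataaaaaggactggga
Over the 250 bases before each start, the sequences are 89.7% identical in alignment. GGCGCC starts 109 bases before the start of Hamp, and at the matching place Hamp2 has the substitution G4A (positions from the 5′ end of the motif). TTCNNNGAA starts 97 bases before the start of Hamp and is present in Hamp2. Over 250 bases before the start, 9.59% of 32851 RefSeq promoters hold GGCGCC and 7.02% hold TTCNNNGAA, and the motifs do not overlap each other here. Of the other members in the table, a promoter of Tfrc holds GGCGCC and no other promoter holds either motif; Trf and Id1 are named only.

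Iron-responsive elements were searched in the transcripts as a CAGTG loop over a paired stem with an unpaired C, 27 bases long, with the loop bases in capitals. They are shown because they mark the members whose mRNA is bound directly by the iron regulatory proteins. Tfrc (chromosome 16, 32608920 to 32632794, plus strand) has 4 in its 3′ UTR, the ones at chr16:32631220-32631246 and chr16:32631711-32631737 being the outer pair:
Tfrc element 1: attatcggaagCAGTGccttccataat
Tfrc element 2: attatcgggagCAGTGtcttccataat
Tfrc element 3: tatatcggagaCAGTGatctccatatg
Tfrc element 4: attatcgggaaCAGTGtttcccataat
Fth1 (chromosome 19, 9980598 to 9985098, plus strand) and Ftl1 (chromosome 7, 45457944 to 45459884, minus strand) have 1 each in the 5′ UTR, at chr19:9982733-9982759 and chr7:45459780-45459806:
Fth1 element: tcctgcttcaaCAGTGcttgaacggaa
Ftl1 element: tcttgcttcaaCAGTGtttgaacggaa
The same search matched 294 of 21877 protein-coding genes (1.34%), and no transcript of the other 7 members.

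Library totals of expected counts lay between 32025244 and 57151736 (median 38663519). The labelled tissue fitted its markers: albumin (Alb) had a median of 75883 CPM (counts scaled to a common library size, TMM-normalized), and skeletal muscle markers summed to a median of at most 0.225 CPM in each sex and age, with 1 library of Q175 at 10 months at 618 CPM. Red cell markers summed to 7874 CPM in 1 Q175 male of 10 months (median of the group 332 CPM). Without the libraries with muscle or blood RNA at 10 months, 6 members were called by sex, 0 for Q175 against Q20 and 0 for Q20 against WT, as with them. Htt, the targeted gene, was lower in Q175 than in Q20 at every age (log2 fold changes −0.48, −0.59 and −0.67 at 2, 6 and 10 months). The Q80 library labelled male M5 at 2 months had 0 CPM summed over 4 Y-linked genes, against 133 to 174 CPM in the 28 other males, and 0.513 CPM of Xist. Its Hamp2 level was 324 CPM, against 12.03 to 121 CPM in the other males, so Hamp, Hamp2, Id1 and the number of members called by sex at 2 months are given with and without it, as are the relations of Hamp in males of that age. The knock-in libraries of 6 months carry other codes in their names than the 6-month WT libraries and than all other ages; what the codes mean is not stated. Within the knock-in lines these codes cannot be told apart from age 6, and at 6 months they cannot be told apart from Q20 against WT. Results at 6 months are also given, where stated, without 3 Q20 females, F1, F3 and F4, which an earlier reading of these data singled out for their immune markers and which are called the 3 singled-out Q20 females here. All other results at 6 months, among them the relations between genes, include them.

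Per length of transcript (FPKM, median over all libraries), the transferrin gene Trf led with 5359, followed by Ftl1 with 2678, Hamp with 997, Fth1 with 971, Hamp2 with 279 and Tfr2 with 120. Hfe had 20.9, Tfrc 5.69, Id1 4.74 and Bmp6 1.25 FPKM. In that order, Trf (3913 to 9060 FPKM) did not overlap with Ftl1 (2121 to 3591 FPKM), nor Tfr2 with Hfe or Hfe with Tfrc; all other neighbours overlapped, Hamp spanning 120 to 2848 FPKM and Hamp2 19.7 to 1845 FPKM. Over all libraries, both sexes and all ages pooled, the coefficient of variation of CPM was 97.6% for Hamp2, 67.5% for Id1, 54.0% for Hamp, 43.6% for Tfrc and 31.1% for Bmp6, and 9.85% to 15.1% for Hfe, Fth1, Ftl1, Tfr2 and Trf. These values include the differences between the sexes: within females of 6 months it was 29.7% for Hamp2, 32.2% for Hamp, 32.6% for Bmp6, 44.0% for Id1 and 44.2% for Tfrc. The highest library had 89.5 times the lowest in Hamp2 and 21.9 times in Hamp, against 1.65 times in Hfe. CPM below use 1 normalization over all libraries and are compared only within a gene.

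Both hepcidin genes and Id1 were higher in females than in males at every age, with or without the Huntington allele. In the WT libraries of 6 months, Hamp stood at 572, 701.1, 585 and 973 CPM in the females and at 301, 174, 181 and 210 CPM in the males. Hamp2 stood at 431, 492.8, 226 and 445 CPM in the females and at 35.1, 19.5, 17.9 and 28.7 CPM in the males. Every WT female of that age was above every WT male for both genes. Id1, the BMP target, stood at 4.69, 10.2, 7.90 and 5.93 CPM in the females and at 2.48, 2.49, 0.963 and 1.91 CPM in the males, again without overlap. How many of all genes separate the WT females from the WT males in this way was not counted.

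Over all genotypes, Hamp averaged 486 ± 142 CPM in females (SD, n = 27) and 248 ± 133 CPM in males (n = 29) at 2 months, 604 ± 195 and 282 ± 164 CPM at 6 months (n = 28 each), and 580 ± 180 and 238 ± 105 CPM at 10 months (n = 28 and 27). The sexes overlapped at each age when all genotypes were pooled. The log2 fold change of females over males was 1.046 ± 0.16 (SE), 1.13 ± 0.17 and 1.34 ± 0.15 at 2, 6 and 10 months (adjusted p = 2.03e-07, 1.92e-07 and 1.32e-10, edgeR's quasi-likelihood test, Benjamini-Hochberg adjusted over every gene tested, as for every adjusted p below unless another test is named). The female mean was the higher in 21 of 21 groups of genotype and age, and in 10 of them every female was above every male. How many of all genes separate in this way within a group, or between groups of the same age, was not counted.

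Hamp2 differed far more. Females averaged 489 ± 176, 351 ± 104 and 377 ± 161 CPM and males 56.4 ± 56.5, 31.9 ± 19.1 and 32.0 ± 14.2 CPM at 2, 6 and 10 months (46.9 ± 24.0 CPM in the males of 2 months without M5). The lowest female had 179 CPM and the highest male 97.5 CPM at 6 months, and 105 and 62.6 CPM at 10 months, so the sexes did not overlap at either age; 0.703% and 0.631% of all genes tested had every female above every male. At 2 months 1 library, the Q80 library labelled male M5, crossed into the females (0.0727% of genes had every female above every male with it), and without it the lowest female (249 CPM) was again above the highest male (121 CPM), as for 0.766% of genes. Log2 fold changes were 3.21 ± 0.23 (adjusted p = 1.62e-17), 3.51 ± 0.17 (adjusted p = 4.49e-24) and 3.58 ± 0.20 (adjusted p = 1.25e-21), or 9.22-fold, 11.4-fold and 11.9-fold. Without M5 the values at 2 months were 3.39 for Hamp2, 1.052 for Hamp and 1.17 for Id1, and 5 members were called, as with it.

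**Figure D1:**
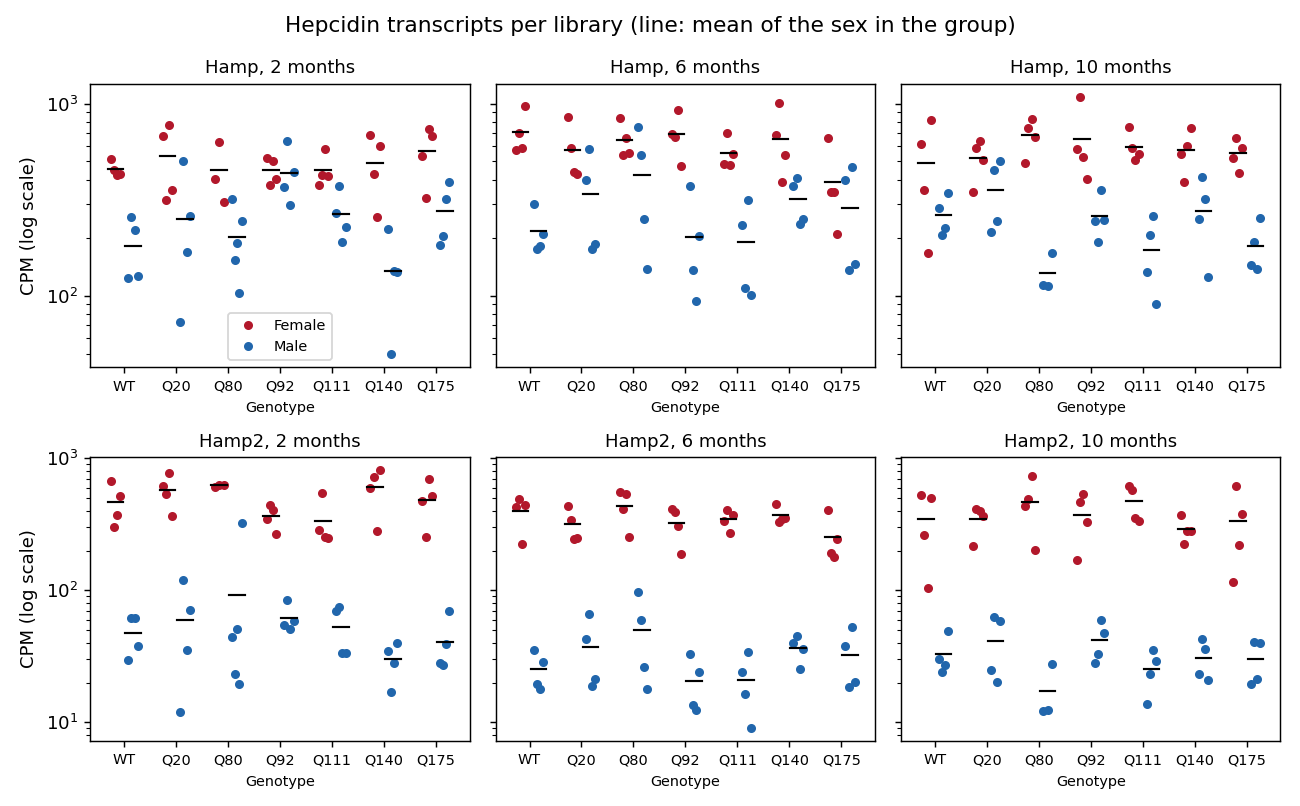
CPM (log axis) of Hamp (upper row) and Hamp2 (lower row) in each library, by genotype at 2, 6 and 10 months; red points are females, blue points males, and the line is the mean of a sex in its group. The 28 females of 6 months sit at 179 CPM of Hamp2 or above and the 28 males at 97.5 CPM or below, while Hamp overlaps between the sexes in part of the groups.

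The make-up of hepcidin mRNA differed by sex in the same way. Hamp2 took a median of 45.9% of the summed FPKM of both genes in females of 2 months (27.9% to 64.7%), 34.4% at 6 months and 37.2% at 10 months. In males the median was 14.6%, 9.05% and 9.71%, and the highest male share was 54.2%, 11.7% and 22.3%. The 54.2% is that of M5, and without it the highest male share at 2 months was 23.3% (median 14.1%), below the lowest female. The highest male share at 6 months was below the lowest female share of that age, 22.7%. At 10 months the lowest female share was 16.8%, so the shares overlapped there.

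Among the regulators, Id1 averaged 6.12 ± 2.65, 9.08 ± 3.99 and 7.79 ± 3.08 CPM in females and 2.74 ± 1.14, 3.03 ± 1.67 and 3.06 ± 1.74 CPM in males at 2, 6 and 10 months. Its log2 fold change was 1.16 ± 0.15, 1.60 ± 0.16 and 1.40 ± 0.17 (adjusted p = 2.66e-09, 2.75e-12 and 5.42e-10), with the female mean higher in 21 of 21 groups and no overlap in 13. The share of all genes without overlap within a group was not counted, and with all genotypes pooled the sexes overlapped in Id1 at each age. Bmp6, the ligand, was higher in females at 10 months only by this test (0.40 ± 0.12, adjusted p = 0.00284), with values of −0.02 ± 0.08 at 2 months and 0.23 ± 0.13 at 6 months; limma on FPKM also called it at 6 months (0.36, adjusted p = 0.0243). The test of a sex difference changing with age passed for 0 of 10 members in any of the 3 pairs of ages (smallest adjusted p = 0.236), while 0.55%, 1.91% and 0.0524% of all genes passed. Hfe, the receptor partner, was lower in females of 2 and 6 months by counts, with −0.15 ± 0.03 (adjusted p = 1.71e-05) and −0.10 ± 0.03 (adjusted p = 0.00651). In limma on FPKM neither age passed (−0.06, adjusted p = 0.0888, and 0.04, adjusted p = 0.293). Tfr2, the sensor of iron-loaded transferrin, had −0.04, −0.03 and −0.05, which did not pass by counts.

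Of the genes of uptake, carriage and storage, Trf was higher in females at every age, by 0.22 ± 0.03, 0.14 ± 0.06 and 0.22 ± 0.05 (adjusted p = 1.18e-07, 0.0283 and 6.96e-05). Tfrc was lower in females at 6 months (−0.34 ± 0.14, adjusted p = 0.027), and had −0.21 ± 0.13 and −0.20 ± 0.15 at 2 and 10 months. Of 5 red cell markers 0 were higher and 1 lower in females at each age, Alas2, the heme synthesis enzyme of red cell precursors (−2.96 ± 0.12, −3.21 ± 0.07 and −3.48 ± 0.18), and the summed list ran from 112 to 651 CPM in females of 6 months (median 245) and from 241 to 944 CPM in males (median 364); its part in the difference of Tfrc was not tested. Fth1 was lower at the later ages by counts but above 0 by FPKM, with −0.08 ± 0.03 (adjusted p = 0.0312) and −0.11 ± 0.04 (adjusted p = 0.0283), and Ftl1 passed at no age by counts (0.16 at 10 months in limma on FPKM, adjusted p = 0.000421). Counts of Fth1 and Ftl1 depend on how the authors' counting treated their processed pseudogenes. In all, 5, 7 and 6 of the 10 members passed at 2, 6 and 10 months, and 57.2%, 60.4% and 56.6% of all genes did, so the share of members is near the background. Their median log2 fold change was −0.03, 0.05 and 0.11, beside 0.01, 0.01 and 0.02 over all genes.

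**Figure D2:**
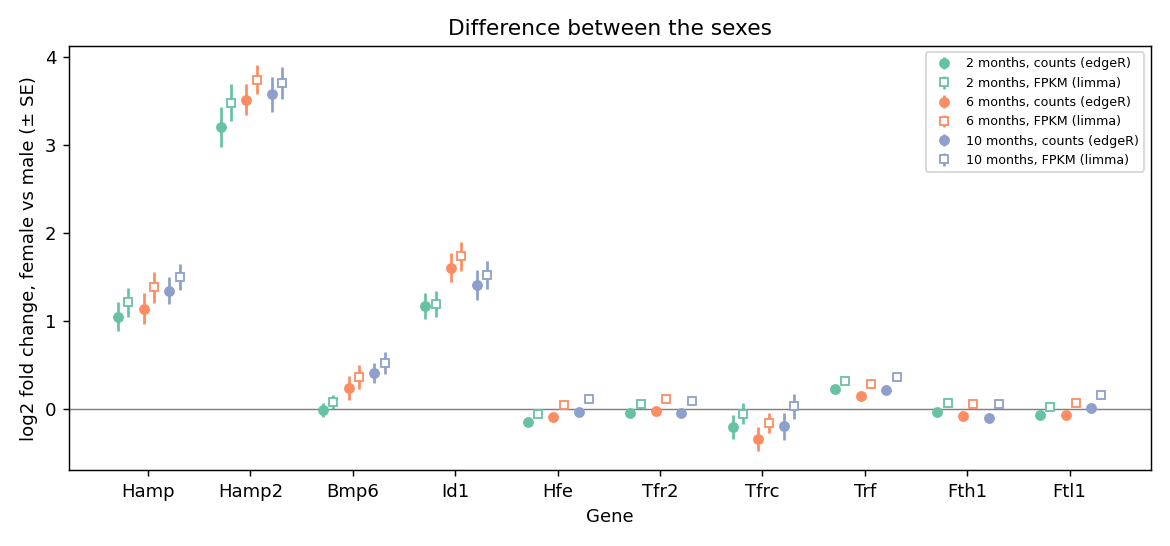
Log2 fold change of females over males with its SE for the 10 genes at 2, 6 and 10 months, from counts (filled circles, edgeR) and from FPKM (open squares, limma). Hamp2 lies between 3.21 and 3.74 and Hamp and Id1 between 1.046 and 1.73. The small differences of Hfe, Tfr2 and Fth1 lie on either side of 0 by the scale used, except Hfe at 2 months, which lies below 0 on both.

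The small differences depended on the scale. With limma on log2(FPKM + 0.1), the median over all genes moved up by 0.07, 0.11 and 0.12 at 2, 6 and 10 months, and the members moved with it. On that scale Fth1 stood at 0.06, 0.05 and 0.05, Hfe at −0.06, 0.04 and 0.11, and Tfr2 at 0.05, 0.11 and 0.09, so no direction by sex is given for these 3 genes. Tfrc at 6 months ended at −0.17 (adjusted p = 0.225, limma), and in the knock-in lines alone at −0.23 (adjusted p = 0.144). Trf at 6 months kept its direction at 0.11 in the knock-in lines alone (adjusted p = 0.0995) and at 0.13 without the 3 singled-out Q20 females (adjusted p = 0.0594), and passed in limma. Hamp, Hamp2 and Id1 passed in the same direction under each alternative run.

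Other genes of the BMP and SMAD pathway differed by sex in both directions: of 19 measured, 6 were higher and 4 lower in females at 2 months, 5 and 6 at 6 months, and 6 and 4 at 10 months, with a list median of 0.05, −0.06 and 0.02. For this and the following lists by sex the background is again 57.2%, 60.4% and 56.6% of all genes in either direction. At 6 months the inhibitory SMADs that the pathway itself induces were higher, Smad7 by 0.57 ± 0.10 and Smad6 by 0.52 ± 0.10, and at 10 months Smad6 by 0.56 ± 0.07 and Id4 by 1.17 ± 0.15. The hemojuvelin partner neogenin (Neo1) was lower at both ages (−0.24 ± 0.04 and −0.29 ± 0.05). Hemojuvelin itself (listed as Hfe2), the BMP co-receptor, was lower in females at −0.35, −0.38 and −0.35; it was chosen after its values were seen. Tmprss6, the protease that cuts hemojuvelin, had −0.13 ± 0.03 at 6 months by counts but 0.00082 from FPKM, so it has no direction.

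Iron transporters also split. Of 14 genes, 3 were higher and 3 lower in females at 2 months, 6 and 3 at 6 months, and 4 and 4 at 10 months. The metal importer Slc11a2 (DMT1) averaged 23.4 ± 4.12 CPM in females and 41.6 ± 6.12 CPM in males at 6 months (log2 fold change −0.83 ± 0.05), and the ferrireductase Steap3 15.2 ± 2.85 and 23.0 ± 4.38 CPM (−0.60 ± 0.07). Steap2, of the same family, was at 19.1 ± 4.57 and 9.56 ± 2.49 CPM (0.998 ± 0.09). The ferritin receptor Scara5 had a median of 0.0288 CPM in females and 6.56 CPM in males of 6 months, with 24 of all libraries at 0. In heme synthesis and breakdown, 2 of 16 genes were higher and 7 lower in females at 6 months; Alas1, which sets the rate of heme synthesis in liver, led the former with 775 ± 360 against 297 ± 197 CPM (1.38 ± 0.21), and 3 of the 7 lower genes changed sign with FPKM. Of 8 genes of iron sensing and ferritin turnover 2 were higher and 5 lower at 6 months, of which Fbxl5, the ligase that degrades an iron regulatory protein, was higher by 0.36 ± 0.03, and 3 of the 5 lower genes changed sign with FPKM. Of 14 genes of the IL-6 and STAT3 response 1 was higher and 8 lower at 6 months, among them Saa1 (−3.20 ± 0.74, and −2.09 from FPKM); at 2 months 4 were higher and 3 lower, and at 10 months 0 and 6. The sum of that list ran from 6451 to 41630 CPM in males of 6 months (median 8143) and from 5214 to 13140 CPM in females (median 6702).

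Markers of non-parenchymal cells moved with sex as well. Kupffer cell markers were higher in females in 7, 8 and 6 of 8 genes at 2, 6 and 10 months. Sinusoidal endothelial markers were higher in 7, 5 and 1 of 8 and stellate cell markers in 7, 7 and 6 of 8. Of 8 hepatocyte markers 6, 6 and 7 were lower in females, and 1 was higher at each age, Alb (0.46, 0.34 and 0.25). None of the 8 Kupffer, sinusoidal or stellate markers was at 0 in any library. In the same contrasts 57.2%, 60.4% and 56.6% of all genes passed in either direction. The summed Kupffer markers ran from 182 to 839 CPM in females of 6 months (median 359) and from 83.4 to 383 CPM in males (median 273). Their part in the sex differences of the iron genes was not tested. In bulk tissue fewer cells of a type and less RNA per cell cannot be told apart.

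Within a sex, the libraries with more Hamp also had more Hamp2. Over deviations from the genotype mean in log2 CPM, in each of the 6 strata of age and sex (27 to 29 libraries), Pearson's r between them was 0.56 to 0.96 and Spearman's rho 0.51 to 0.96 (two-sided permutation test of 100000 draws within genotype, p = 1e-05 to 0.00857, where 1e-05 is the smallest the draws can give; adjusted p = 0.00022 to 0.0283 over 66 relations). Without the 2 libraries farthest from the median of Hamp, r was 0.44 to 0.95. In males of 2 months r was 0.76 with M5 and 0.90 without it. The shared stretches of the 2 transcripts can add to this relation, and their part was not tested. Hamp against Id1 had r of 0.49 to 0.60 and rho of 0.38 to 0.60, and passed in 4 of 6 strata. It did not pass in males of 2 months (r = 0.49, permutation p = 0.0257, adjusted p = 0.0679) or in females of 10 months (r = 0.51, permutation p = 0.0355, adjusted p = 0.0868), where r without the 2 farthest libraries was 0.30 and 0.34. Without M5 the value in males of 2 months was 0.48 (permutation p = 0.0368, adjusted p = 0.09).

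Id1 and Smad7, both SMAD targets, had r of 0.80 to 0.88 and rho of 0.77 to 0.88 and passed in all 6 strata (permutation p = 1e-05 to 0.00019, adjusted p = 0.00022 to 0.00125). Fth1 and Ftl1, the ferritin chains, had r of 0.55 to 0.83 and rho of 0.53 to 0.79 and passed in all 6 (permutation p = 0.00011 to 0.0174, adjusted p = 0.000908 to 0.0498), but in 3 of 6 when FPKM was used. Hamp with Hfe passed in 1 stratum, females of 6 months (r = 0.60, rho = 0.60, permutation p = 0.00085, adjusted p = 0.00468). Hamp with its ligand gene Bmp6 had r between −0.13 and 0.18 and passed in 0 of 6 by r, as did Hamp with Tfr2, with Tfrc and with the STAT3 target Saa1, Id1 with Bmp6, and Tfrc with Trf. Id1 with Bmp6 passed in males of 6 months by rho (0.56, permutation test, adjusted p = 0.0411) and, on the FPKM scale, by r (0.58, permutation test, adjusted p = 0.0394).

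**Figure D3:**
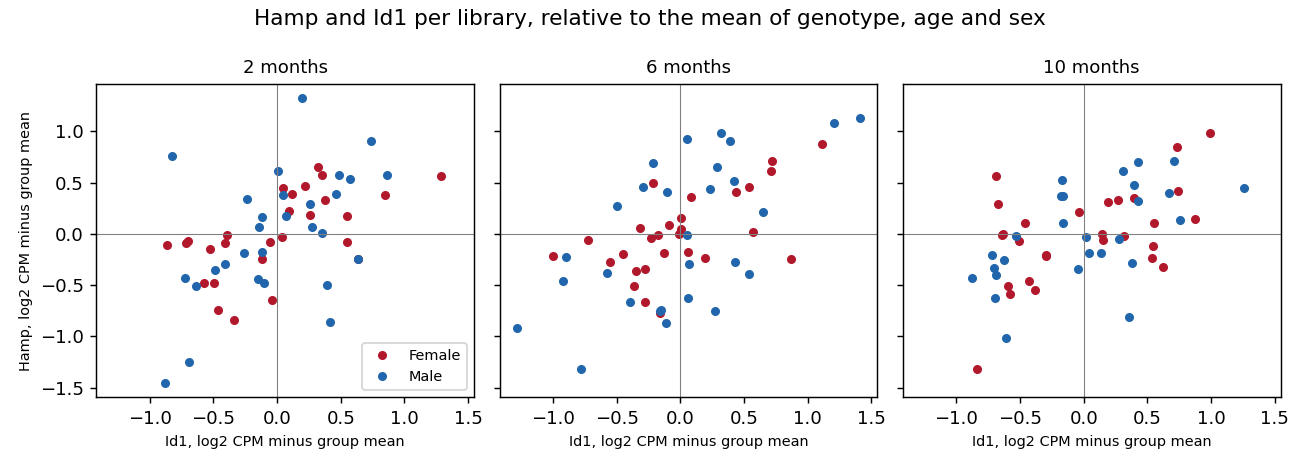
Hamp against Id1 in log2 CPM, each relative to the mean of its genotype, age and sex, with 1 point per library (red female, blue male) at 2, 6 and 10 months. The clouds rise to the right at each age, with r of 0.49 to 0.60 in the 6 strata of age and sex.

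Over all libraries, centred on the mean of genotype, age and sex, the genes most like Hamp among 11984 were Hamp2 (Pearson's r = 0.75), Gm4673 (0.66), Nqo1 (0.55), Id1 (0.55) and Bin3 (0.53). Among those most like Id1 were Smad7 (0.83), Id3 (0.63), Hnrnpa0 (0.59) and 5830473C10Rik (0.57). Those most like Tfrc were Fkbp4 (0.65), Rpl7l1 (0.64), Eif4e (0.63), Stip1 (0.63) and Slc39a10 (0.62), and none of the other 9 iron genes was among them. These are descriptions over libraries that share normalization and depth.

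Between Q175, the longest allele, and Q20, Tfrc at 6 months was the 1 member past the threshold by edgeR's quasi-likelihood test. No member passed the slope over the 6 knock-in lines at 2, 6 or 10 months by edgeR's quasi-likelihood test (Tfrc and Hfe at 6 months, 2 of the 10, had an unadjusted p under 0.05, 0.0156 and 0.00906; DESeq2 also called 0 at each age), while 0.266%, 5.67% and 0.25% of all genes did. Between Q175 and Q20 the members called were 0, 1 and 0, against 0.258%, 10.2% and 0.931% of genes. Hamp had a slope of −0.03 ± 0.19, −0.24 ± 0.20 and −0.25 ± 0.15 per 100 repeats at 2, 6 and 10 months, and intervals at the later ages from −0.63 to 0.15 and from −0.54 to 0.05 leave changes of that size undetectable at this spread. At 6 months the lowest, median and highest level of Hamp was 175, 434 and 847 CPM in Q20 and 135, 346.5 and 660 CPM in Q175, with wide overlap. At 10 months Hamp had a lowest, median and highest level of 214, 476 and 638 CPM in Q20 and of 138, 344 and 665 CPM in Q175, ranges that overlap over most of their length (log2 fold change −0.48 ± 0.27, adjusted p = 0.467). Hamp2 had slopes of −0.37 ± 0.25, −0.19 ± 0.19 and −0.21 ± 0.19, and Id1 of 0.01 ± 0.17, −0.29 ± 0.20 and −0.25 ± 0.17.

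Tfrc, whose product takes iron-loaded transferrin into the cell, was higher in Q175 than in Q20 at 6 months. The Q175 females had 38.3, 27.4, 39.3 and 39.9 CPM and the Q20 females 13.1, 10.5, 12.4 and 21.8 CPM, without overlap. The Q175 males had 25.7, 32.4, 24.0 and 29.9 CPM and the Q20 males 19.6, 19.1, 22.7 and 27.95 CPM, which overlap. The log2 fold change was 0.84 ± 0.26 (adjusted p = 0.0269, 1.79-fold), at means of 32.1 ± 6.38 and 18.4 ± 5.96 CPM (SD, n = 8 each). In females alone it was 1.31 ± 0.36 (adjusted p = 0.0402) and in males alone 0.32 ± 0.28 (adjusted p = 0.525); the test of a slope differing by sex passed for 0 of 10 members at this age (smallest adjusted p = 0.234), and Q175 against Q20 by sex was not tested. Without the 3 singled-out Q20 females the value was 0.84 ± 0.31 (adjusted p = 0.199), when 2 of 16684 genes passed in all, and leaving out Q175 F3 or Q20 F1, F2 or F3 singly gave adjusted p of 0.0515 to 0.0616 at 0.78 to 0.80.

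The other lines did not form a steady rise in Tfrc. At 6 months the median was 21.4 CPM in WT, 19.4 in Q20, 25.5 in Q80, 23.7 in Q92, 25.4 in Q111, 20.6 in Q140 and 31.1 in Q175. The slope was 0.37 ± 0.15 per 100 repeats (adjusted p = 0.127). At 2 and 10 months Q175 over Q20 was 0.17 ± 0.25 and 0.22 ± 0.28, neither past the threshold. The slope was not shown to differ between ages for any member (0 of 10 in each pair of ages, smallest adjusted p = 0.179, beside 0.249% to 3.65% of all genes). Markers of other cells moved in Q175 against Q20 at 6 months, where 10.2% of all genes passed in either direction. In Q175, 6 of 8 Kupffer markers and 4 of 8 sinusoidal markers were lower. Their sums had medians of 319 and 249 CPM in Q175 and 415 and 355 CPM in Q20. Immature red cells are rich in Tfrc; red cell markers summed to 256 to 651 CPM in Q175 and 186 to 764 CPM in Q20. Their part in the difference of Tfrc was not tested.

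**Figure D4:**
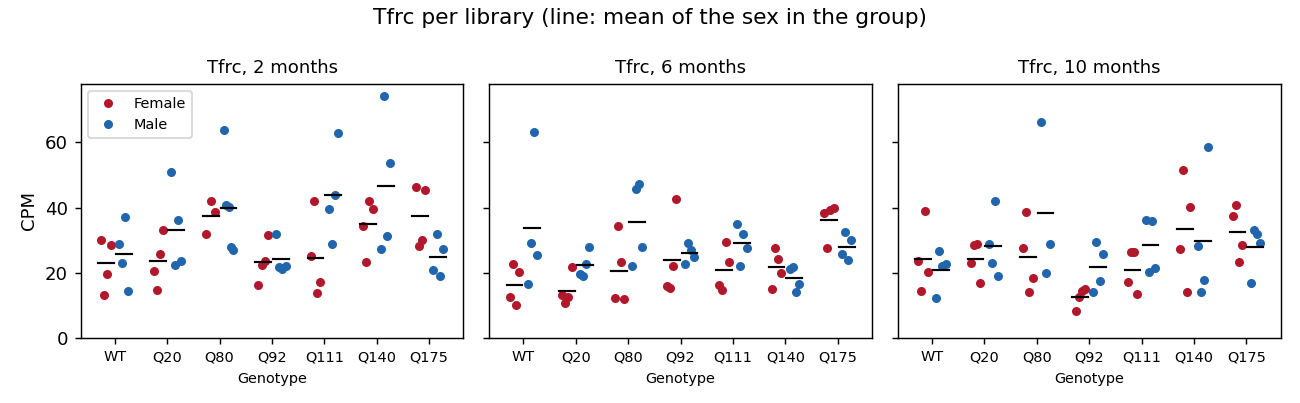
Tfrc in CPM in each library by genotype at 2, 6 and 10 months; red points are females, blue points males, and the line is the mean of a sex in its group. At 6 months the 4 Q175 females lie between 27.4 and 39.9 CPM and the 4 Q20 females between 10.5 and 21.8 CPM, while the males of both lines overlap.

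Hfe at 6 months was just short of the threshold in Q175 against Q20 (−0.17 ± 0.06, adjusted p = 0.0563), and passed with DESeq2 (−0.16, adjusted p = 0.05), in limma on FPKM (−0.19, adjusted p = 0.0449) and in females alone (−0.29, adjusted p = 0.0373). It did not pass in males alone or without the 3 singled-out Q20 females, which the fit of females alone includes. Its slope at 10 months, −0.04 ± 0.04, became −0.19 ± 0.05 without the Q20 libraries (adjusted p = 0.036). Id1 and Bmp6 had −0.64 ± 0.30 and −0.50 ± 0.25 in Q175 at 6 months (adjusted p = 0.164 and 0.195). Tfr2, Trf, Fth1 and Ftl1 stayed between −0.07 and 0.10 in Q175 against Q20 at the 3 ages, none past the threshold.

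Of the wider pathway lists in Q175 against Q20 at 6 months, 1 of 14 iron transporters was higher and 1 lower. For this and the following lists the background is 10.2% of all genes in either direction. The mitochondrial importer Slc25a37 was at 0.36 ± 0.09 (adjusted p = 0.00837), and the iron exporter ferroportin (Slc40a1), which macrophages carry at high level, at −0.53 ± 0.14 (adjusted p = 0.013). In heme metabolism 4 of 16 genes were higher, among them Alad, Ppox and Urod of the synthesis chain (0.30, 0.29 and 0.19), and Hmox1, which breaks heme down, was lower (−0.82 ± 0.20, adjusted p = 0.00728). Ireb2, the gene of an iron regulatory protein, was the 1 of 8 sensing genes to pass (−0.31 ± 0.10, adjusted p = 0.0391), and 0 of 19 BMP and SMAD genes passed. Slc40a1 and Hmox1 were lower beside the Kupffer markers named above, and that part was not tested. Without the 3 singled-out Q20 females, 2 genes of the whole table passed.

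**Figure D5:**
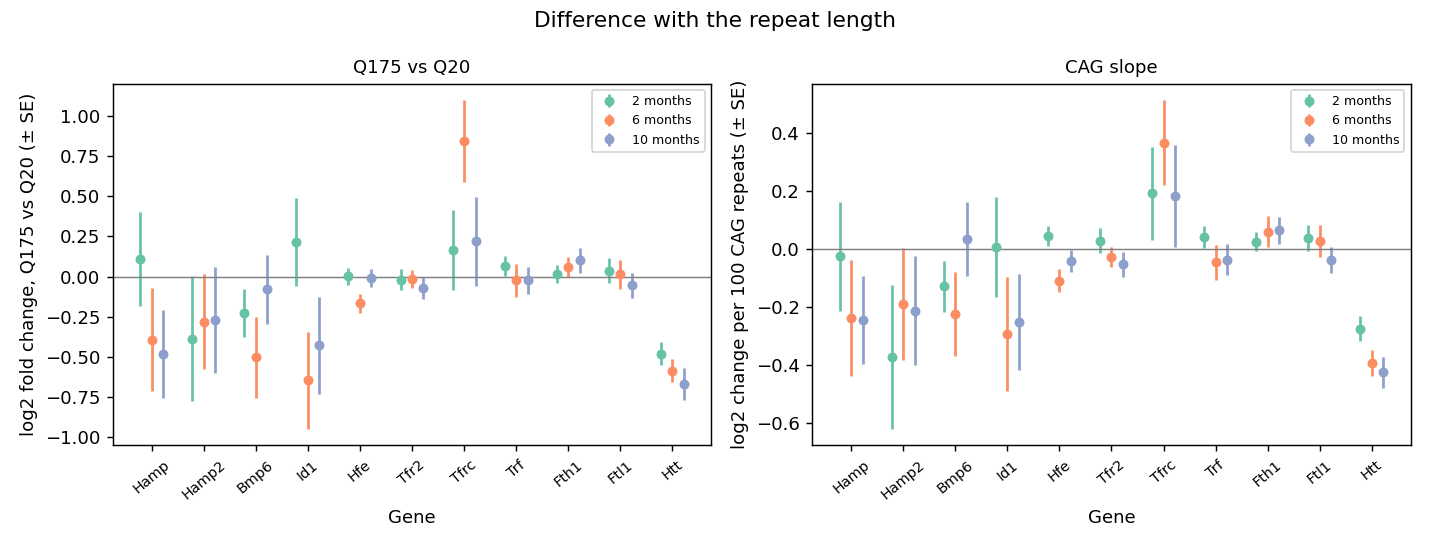
Left, log2 fold change of Q175 over Q20, and right, log2 change per 100 CAG repeats over the 6 knock-in lines, each with its SE, for the 10 genes and Htt at 2, 6 and 10 months. Htt lies below 0 at each age in both panels, and among the iron genes Tfrc in Q175 at 6 months (0.84 ± 0.26) passed the threshold.

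The remaining contrasts of genotype called few members. Q20 against WT gave 0 of 10 members at 2 and 10 months, where 0% and 0.00637% of all genes passed. At 6 months, where 31.3% of genes passed, Tfr2 was higher in Q20 (median 408 against 364 CPM, log2 fold change 0.22 ± 0.06, adjusted p = 0.00231) and Fth1 lower (median 722 against 946 CPM, −0.30 ± 0.06, adjusted p = 0.000235). The ranges of Fth1 overlapped, 655 to 812 CPM in Q20 and 747 to 1051 CPM in WT, and those of Tfr2 too, 393 to 474 and 338 to 400 CPM. In this contrast 7 of 8 sinusoidal and 5 of 8 Kupffer markers were higher in Q20; the library codes named above cannot be told apart from it.

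Against the same Q20 libraries, Fth1 was higher in Q92 (0.34 ± 0.06, adjusted p = 0.000737) and Q140 (0.25 ± 0.06, adjusted p = 0.0137) at 6 months, where 16.6% and 4.91% of all genes passed, and Hfe was lower in Q92 (−0.26 ± 0.06, adjusted p = 0.00317). All 8 Q92 libraries, at 906 to 984 CPM of Fth1, were above all 8 Q20 libraries, and Hfe overlapped, 31.5 to 42.1 CPM in Q92 and 38.2 to 46.4 CPM in Q20. These contrasts share the Q20 libraries with the one against WT. Without the 3 singled-out Q20 females, Fth1 in Q92 still passed (0.36, adjusted p = 0.0096), while Fth1 in Q140 (0.27, adjusted p = 0.0742) and Hfe in Q92 (−0.21, adjusted p = 0.0755) did not; in males alone none of the 3 passed. Of the other contrasts with Q20, Q80 and Q111 at 6 months called 0 members, beside 8.24% and 0.678% of all genes. At 2 and 10 months no member was called in Q80, Q92, Q111 or Q140 by edgeR's quasi-likelihood test, where Q80 called 0.0991% and 0.00637% of all genes, Q92 0% and 3.72%, Q111 0% and 0.962%, and Q140 0% at both ages; in each of these 10 contrasts 0 to 2 members had an unadjusted p under 0.05, and DESeq2 also called 0 members.

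With age, Hamp2 and Tfrc were lower and Trf and Bmp6 higher after 2 months in the knock-in lines, while Hamp held no called difference. Hamp2 averaged 266 ± 256 CPM at 2 months (SD, n = 48), 188 ± 173 CPM at 6 months (n = 48) and 210 ± 209 CPM at 10 months (n = 47), both sexes together, with log2 fold changes against 2 months of −0.68 ± 0.15 (adjusted p = 2.94e-05) and −0.57 ± 0.15 (adjusted p = 0.00221). Tfrc averaged 32.8 ± 13.2, 24.7 ± 9.11 and 26.6 ± 12.1 CPM, with log2 fold changes against 2 months of −0.41 ± 0.11 (adjusted p = 0.000748) and −0.30 ± 0.11 (adjusted p = 0.0368). The ranges of both genes overlapped between ages. Hamp stood at 370 ± 186, 439 ± 235 and 418 ± 229 CPM, with 0.19 ± 0.13 and 0.06 ± 0.13 against 2 months.

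The carrier Trf was higher at 6 and 10 months than at 2, by 0.18 ± 0.03 (adjusted p = 7.47e-06) and 0.10 ± 0.03 (adjusted p = 0.0294), and the ligand Bmp6 by 0.29 ± 0.09 (adjusted p = 0.00261) and 0.24 ± 0.09 (adjusted p = 0.035). Id1 was higher at 6 months (0.49 ± 0.13, adjusted p = 0.000763) and had 0.29 ± 0.13 at 10 months (adjusted p = 0.0979). Tfr2 averaged 343 ± 34.2, 420 ± 34.7 and 337 ± 32.9 CPM at the 3 ages; it was higher at 6 months than at 2 months by 0.27 ± 0.03 (adjusted p = 1.88e-17) and lower at 10 months than at 6 months, at −0.30 ± 0.03 (adjusted p = 7.23e-20). Fth1 had the reverse pattern, −0.12 ± 0.03 (adjusted p = 0.000122) and 0.08 ± 0.03 (adjusted p = 0.0132). The members called were 7 of 10 for 6 against 2 months, 4 for 10 against 2 months and 2 for 10 against 6 months, beside 53.7%, 20.7% and 54% of all genes.

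Within the knock-in lines age 6 cannot be told apart from the library codes of that age, and ages were not compared within WT. The libraries of 10 and 2 months share codes. In the comparison of 10 with 2 months Tfrc and Bmp6 did not pass in limma on FPKM (−0.24, adjusted p = 0.0777, and 0.23, adjusted p = 0.0562). In females alone Bmp6 (0.40) and Id1 (0.48) passed and Hamp2 (−0.37, adjusted p = 0.0976), Tfrc and Trf did not. In males alone only Hamp2 passed (−0.76, adjusted p = 0.0397). The males of 2 months in that fit include the Q80 library labelled male M5, and males alone were not compared without it. Over all genotypes, Hamp2 averaged 56.4 CPM in males of 2 months with M5 and 46.9 CPM without it. In males of 10 months it averaged 32.0 CPM. Of the pathway lists, 3 of 14 iron transporters were higher and 2 lower at 10 than at 2 months, and 2 of 19 BMP and SMAD genes were higher and 1 lower. Of 8 sensing genes 2 were higher and 1 lower, the latter being Aco1 (−0.13 ± 0.02, adjusted p = 1.76e-06), which encodes an iron regulatory protein. Over all genes 20.7% passed in either direction between these ages. Kupffer and sinusoidal markers had 0 of 8 past the threshold in either direction in this comparison, while 3 of 5 red cell markers and 4 of 5 bile duct markers were higher; their part was not tested.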

How the data were processed

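Messenger RNA of mouse liver was measured by sequencing of polyA RNA. Expected counts and FPKM come as separate tables that the authors deposited, with genes in rows and, per the file headers, 1 library in each column. Of the expected counts 14.1% were not whole and were rounded. Base calling used CASAVA 1.8.2, per the submitters' processing notes; aligner, counter and read length: not given in the sources used here, nor is the build. Of 39179 Ensembl IDs, 37607 matched GENCODE M21 (GRCm38) and 1572 did not. No column was left unused, and no 2 columns were identical.

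The main test was edgeR 4.0.16 under R 4.3.3: TMM normalization, filterByExpr on genotype and sex, quasi-likelihood fit and F test, Benjamini-Hochberg adjustment over all genes, threshold 0.05. At each age the 7 genotypes were fitted with sex; the slope per 100 repeats used the 6 knock-in lines with sex; ages were compared in the knock-in lines with genotype and sex. Relations were tested by permutation within genotype (Python 3.11.15). Alternatives were DESeq2 1.42.0, RLE, no filter, limma 3.58.1 on log2(FPKM + 0.1), each sex alone, a replicate block, the codes in the library names (at 2 and 10 months), left-out libraries and, for the slope, ranks or left-out lines. Those added later were the knock-in lines alone for sex at 6 months, the same settings for the other lines, and the relations without M5. SE covers counting error and the spread between libraries.

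On simulated data, Q175 against Q20 at 6 months (15640 genes) recovered 30, 73, 80 and 98% of genes changed 1.25, 1.5, 2 and 4 fold, with 8 false calls among 147. The members, lists and tests were chosen with earlier results of these data known. The text names all 10 members, Htt, up to 4 genes per list with the smallest p past the threshold, and the 5 genes most like Hamp, Id1 and Tfrc with a mean of at least 1 CPM, except items that are not reported here.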

Additional observations from a re-analysis of the deposited data

Results flagged for a closer look

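In 18 of the 210 groups tested (10 genes in 21 groups of genotype and age), the highest or lowest library lay apart from the rest by Dixon's criterion; about 1 group in 20 does so by chance, and both sexes are in each group. The lone library was the highest in 17 and the lowest in 1. In the hepcidin and BMP genes these were Hamp in Q92 F2 at 10 months (1088 CPM, the next library 583), Id1 in Q80 F2 at 2 months (11.7 CPM, next 3.19), in Q20 F1 at 6 months (12.5 CPM, next 7.12) and in Q175 F1 at 6 months (12.4 CPM, next 5.11), and Bmp6 in Q80 M3 at 6 months (1.21 CPM, the lowest, next 3.03). In the receptor genes they were Tfrc in Q80 M1 at 2 months (63.7 CPM, next 42.1) and in WT M3 at 6 months (63.3 CPM, next 29.1), Tfr2 in Q20 M1 at 2 months (427 CPM) and in Q175 F1 at 10 months (399 CPM), and Hfe in Q20 M3 (42.2 CPM) and Q140 M3 (42.1 CPM) at 10 months. For the carrier they were Trf in Q80 M3 at 6 months (24466 CPM, next 14912), the same library as for Bmp6, in WT F3 at 10 months (14772 CPM) and in Q92 F1 at 10 months (23153 CPM, next 15933). For ferritin they were Fth1 in Q80 M4 at 2 months (1064 CPM), where Ftl1 was flagged too (3338 CPM, next 2729), Fth1 in Q20 M3 at 10 months (1021 CPM) and Fth1 in Q175 M4 at 10 months (1369 CPM, next 868).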

How the results depend on the processing

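Reversed in limma on FPKM, for females against males, were Fth1 (0.0608, 0.0524 and 0.0484 at 2, 6 and 10 months), Tfr2 (0.107 and 0.0906 at 6 and 10 months) and Hfe (0.0406 and 0.108 at 6 and 10 months), beside a shift of all genes of 0.07, 0.11 and 0.12. The sign also changed, for values that passed in neither fit, in Tfr2 (0.0492), Ftl1 (0.0234) and Bmp6 (0.07) at 2 months, Ftl1 at 6 months (0.059) and Tfrc at 10 months (0.0263). Counts of called members that moved by over 1.5 times were as follows; where no cause is named it was not tested. For Q175 against Q20 at 6 months (1) there were 2 with DESeq2, 2 with limma, 2 in females alone, 0 in males alone and 0 without the 3 singled-out Q20 females (F1, F3 and F4); leaving out each library in turn gave 0 to 2, with Tfrc at 0.77 to 0.94 and adjusted p of 0.018 to 0.0616 (12 of 16 passed). For Q92 at 6 months (2) there were 1 without those females and 0 in males alone, for Q140 (1) 0 and 0, for Q20 against WT at 6 months (2) 1 in males alone, and for the slope at 10 months (0) 1 without the Q20 libraries. For 6 against 2 months (7) there were 4 in males alone, and for 10 against 2 months (4) 2 in females alone and 1 in males alone, with fewer libraries in each. Replicate numbers are shared by the groups. Same-numbered Q175 and Q20 libraries had correlations of −0.21 to 0.37, over 0.1 in 2, 4 and 5 of 8 pairs (medians 0.05, 0.10 and 0.16 at 2, 6 and 10 months). These values do not settle whether the libraries are pairs, and the main test did not treat them as such. With a replicate block 1 member was called for Q175 against Q20 at 6 months (Tfrc, 0.86, adjusted p = 0.0205) and no call of a member in another genotype contrast changed. Over all genes the block moved the Q175 calls from 1595 to 1703 at 6 months and from 146 to 7 at 10 months; at 6 months females alone gave 533, males alone 780 and limma 1057. Depth did not limit the abundant members; Bmp6 and Id1, with medians of 2.98 and 4.25 CPM, carried the fewest reads.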
